A study of Mus musculus with 10 samples.

Results

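The class I and class II histone deacetylases, the 10 genes Hdac1 to Hdac10, were examined in RNA-seq of the ventral hippocampus (vHpc). Their members were taken by gene symbol from the 24421 symbols of the expression table, and all 10 were present. All 10 were also among the 15081 genes that entered the tests, for which the mean CPM (reads per 1000000 reads counted on genes) had to reach 0.5. The libraries came from ovariectomized (OVX) female C57BL/6 mice of 2 genotypes. OVX WT mice were Wild Type, and OVX Het-Met mice were heterozygous knock-in carriers of the Met variant of Bdnf (Val66Met), the gene of brain-derived neurotrophic factor. After 2 weeks of recovery from surgery at an age of 70 to 80 days, mice drank either 17β-estradiol (E2) at 300 nM in 0.1% ethanol, about 0.7 µg per day, or 0.1% ethanol alone (vehicle) for 6 weeks. All animals lacked ovaries, so every group, vehicle included, was studied without ovarian cycling. The OVX WT mice gave 2 libraries with vehicle (replicates 1 and 3) and 2 with E2 (replicates 1 and 2), and the OVX Het-Met mice gave 3 with each treatment. RNA of 2 animals was pooled for every library, so the spread between individual mice was not measured. The WT C57BL/6 and the heterozygous knock-in mice were both bred in-house, and whether they were littermates is not given in the sources used here. The Met allele and any other difference between the genotypes can therefore not be told apart. The table gives totals per gene, and the Met allele itself was not read out.

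Histone deacetylases remove acetyl groups from lysines of histones and other proteins and thereby oppose the acetyltransferases. The class I enzymes HDAC1, HDAC2 and HDAC3 act as catalytic subunits of nuclear repressor complexes, HDAC1 and HDAC2 in NuRD, SIN3 and CoREST and HDAC3 in NCoR and SMRT, while HDAC8 deacetylates the cohesin subunit SMC3. The class IIa enzymes HDAC4, HDAC5, HDAC7 and HDAC9 have weak activity of their own, bind MEF2 transcription factors and move between nucleus and cytoplasm with calcium-dependent phosphorylation. In class IIb, HDAC6 is a cytoplasmic tubulin deacetylase and HDAC10 deacetylates polyamines. In hippocampal neurons HDAC2 and HDAC3 are known as brakes on memory-related transcription, and HDAC4 and HDAC5 respond to synaptic activity.

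Reads counted on genes numbered 19820184 to 23267410 in each library, which sets the value of 1 read at 0.0430 to 0.0505 CPM. Markers of hippocampal pyramidal neurons (9 of 9 above 0 in all libraries) summed to between 11076 and 12289 CPM. Markers of the choroid plexus, the epithelium that makes cerebrospinal fluid, varied far more, with 8 of 8 above 0 and a sum of 148 CPM in replicate 1 and 1067 CPM in replicate 3 of vehicle-treated OVX WT mice. That sum was between 1884 and 2483 CPM in E2-treated OVX WT mice, between 1449 and 3236 CPM in vehicle-treated OVX Het-Met mice and between 260 and 1535 CPM in E2-treated OVX Het-Met mice. Pituitary markers (3 of 5 above 0 in all libraries) summed to between 1.80 and 210 CPM. Blood markers summed to between 2.30 and 3.84 CPM, with both hemoglobin genes, Hba-a1 and Hbb-bs, listed at 0 in all 10 libraries. The remaining marker lists (dentate granule cells, interneurons, astrocytes, oligodendrocytes, microglia, vessels, ependyma, meninges and thalamus) had all of their genes above 0 in every library. The widest relative range among them was that of the ependyma markers, whose sum lay between 15.8 and 31.0 CPM. In whole tissue, fewer cells of a type and less RNA per cell cannot be told apart.

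The promoters of Hdac4, Hdac6 and Hdac8 are shown because these genes had the smallest unadjusted p-values of the family. For Hdac4 this was for genotype over both treatments, and for Hdac6 and Hdac8 for genotype under E2. RefSeq start sites in GRCm38.p6 (the mm10 assembly) gave the 11 promoters used, which belong to 7 of the 10 genes. Each has 300 bases, from 250 before to 50 after the start. Capitals mark matches on either strand to 6 patterns: the estrogen response element (GGTCA and TGACC separated by 3 bases of any kind), its AGGTCA arm, the cyclic AMP response core TGACG, the CCAAT box, the GC box GGGCGG and the TATA box TATAAA.
Hdac4, chr1:92180292-92180591, minus strand: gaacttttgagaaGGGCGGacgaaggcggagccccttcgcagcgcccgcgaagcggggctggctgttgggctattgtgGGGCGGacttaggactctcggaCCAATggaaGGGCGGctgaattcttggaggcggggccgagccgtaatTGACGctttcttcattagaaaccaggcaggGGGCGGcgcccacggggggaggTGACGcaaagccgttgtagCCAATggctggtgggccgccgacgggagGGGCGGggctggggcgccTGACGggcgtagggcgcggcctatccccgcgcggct
Hdac6, chrX:7947840-7948139, minus strand: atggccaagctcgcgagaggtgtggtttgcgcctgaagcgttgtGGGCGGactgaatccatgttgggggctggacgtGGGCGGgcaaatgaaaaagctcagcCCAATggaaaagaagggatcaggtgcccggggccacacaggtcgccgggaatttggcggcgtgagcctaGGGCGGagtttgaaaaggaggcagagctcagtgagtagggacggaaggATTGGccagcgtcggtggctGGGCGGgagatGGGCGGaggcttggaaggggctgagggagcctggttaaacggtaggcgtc
Hdac8, chrX:102505109-102505408, minus strand: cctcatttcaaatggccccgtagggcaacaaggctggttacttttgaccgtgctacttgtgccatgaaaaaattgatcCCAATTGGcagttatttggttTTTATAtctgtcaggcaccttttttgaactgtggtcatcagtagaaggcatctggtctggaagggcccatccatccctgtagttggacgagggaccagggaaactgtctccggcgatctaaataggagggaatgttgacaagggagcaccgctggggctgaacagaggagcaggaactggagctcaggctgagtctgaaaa
The Hdac4 promoter, whose start lies inside the longer span that GENCODE gives the gene, held 5 GC boxes, 3 TGACG cores and 2 CCAAT boxes, without overlaps, in a sequence of 68.0% G and C. The Hdac6 promoter, at 62.0% G and C, also held 5 GC boxes and 2 CCAAT boxes, and no TGACG core. The Hdac8 promoter was of another kind, with 49.7% G and C, no GC box, 1 TATA pattern and 2 CCAAT matches that overlap as the palindrome CCAATTGG. Of the 32841 promoters of this length in the set used, 35.7% held a GC box and 37.4% a CCAAT box. A TGACG core was in 20.8% and a TATA pattern in 13.6%, and the median G and C content was 52.7%. The estrogen response element, found in 0.0700% of promoters, was in none of the 11, and its AGGTCA arm, found in 16.3%, was in 1 promoter of Hdac7 and 1 of Hdac9. Hdac1, Hdac3 and Hdac10 had no promoter among the 11, so whether theirs hold these patterns was not examined. A match is only a match of letters in these windows.

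The highest level per length belonged to Hdac3, and the lowest to Hdac4. Levels are compared between genes per kb of exon, over all 10 libraries. Hdac3 (chromosome 18, 37935844 to 37955016) stood at 29.9 ± 2.48 CPM per kb (SD, n = 10), followed by Hdac5 (chromosome 11, 102194432 to 102230166) at 20.2 ± 0.923 CPM per kb. Hdac2 (chromosome 10, 36974544 to 37001889) had 18.7 ± 1.196 CPM per kb and Hdac6 (chromosome X, 7930120 to 7947889) 11.98 ± 0.951 CPM per kb. These 4 genes made up most of the family's transcripts per length, with Hdac3 holding 29.1%, Hdac5 19.7%, Hdac2 18.3% and Hdac6 11.7% of the summed CPM per kb. Hdac7 (chromosome 15, 97792664 to 97844502) had 7.09 ± 1.09 CPM per kb and Hdac10 (chromosome 15, 89123307 to 89128700) 4.58 ± 0.764 CPM per kb. Hdac9 (chromosome 12, 34047580 to 34917095) had 3.42 ± 0.274 CPM per kb and Hdac8 (chromosome X, 102284639 to 102505359) 2.96 ± 0.373 CPM per kb. Hdac1 (chromosome 4, 129516104 to 129542713) had 2.43 ± 0.402 CPM per kb, and Hdac4 (chromosome 1, 91928779 to 92195699) 1.37 ± 0.315 CPM per kb. Along this order the ranges of Hdac5 and Hdac2, and of each neighbouring pair from Hdac7 down to Hdac1, overlapped over the 10 libraries, while the other neighbours did not.

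**Figure D1:**
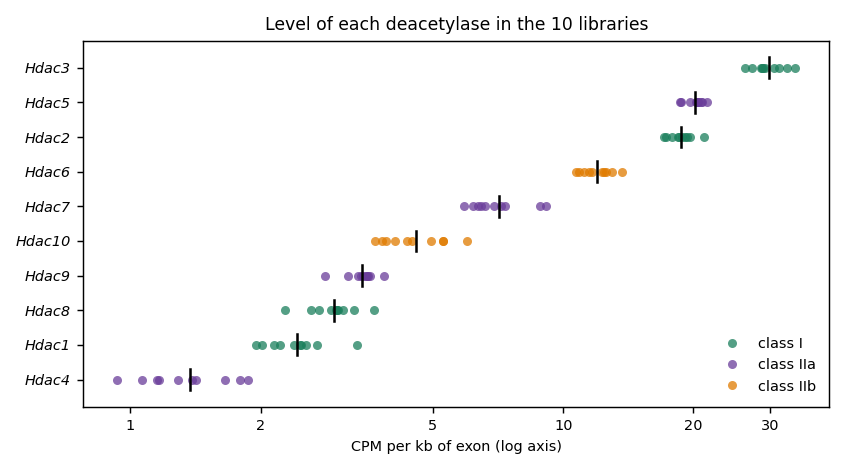
Level of each deacetylase in CPM per kb of exon (log axis), with 1 point per library and a black tick at the mean of the 10 libraries, colored by class. Hdac3, Hdac5, Hdac2 and Hdac6 lie above 10 CPM per kb in every library, and Hdac4 below 2.

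The level of Hdac1 is uncertain. Of the 75-base stretches of its longest transcript, 52.5% (1032 of 1964) also occur in transcripts of other genes, among them Gm10093, and how such reads were counted is not given in the sources used here. For Hdac4, 22.4% of the exon bases (3536) lie opposite the lincRNA Gm26720, which is no row of the table. The kit keeps strand but the strand setting of the counting is not given in the sources used here, so reads of Hdac4 and Gm26720 cannot be told apart. Hdac5 shared 0.365% of its 75-base stretches with Mir8101, and the other 7 genes shared none. When lengths were taken from the longest transcript, only Hdac10, Hdac9 and Hdac8 changed rank, to places 8, 6 and 7.

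Within the family the spread between libraries differed. Hdac5 was the steadiest, with a coefficient of variation of 4.57% over all 10 libraries and a highest library 1.15-fold above the lowest. Hdac4 was the most variable, at 23.0% and 2.01-fold, counted on between 311 and 658 reads per library. Hdac10 (16.7%), Hdac1 (16.6%) and Hdac7 (15.3%) followed Hdac4. For Hdac7 and Hdac10 the replicates of vehicle-treated OVX WT mice were far apart.

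Hdac4, a class IIa enzyme that in neurons shuttles between cytoplasm and nucleus, had lower means in mice with the Met allele under both treatments, at a difference that did not pass the adjusted threshold. It stood at 20.4 and 29.6 CPM in vehicle-treated OVX WT mice and at 26.2 and 28.3 CPM in E2-treated OVX WT mice. In OVX Het-Met mice it stood at 14.8, 21.9 and 18.4 CPM with vehicle and at 22.4, 18.2 and 16.8 CPM with E2. Replicates 3 (vehicle), 1 and 2 (E2) of the WT mice lay above all 6 Het-Met libraries, and replicate 1 of vehicle-treated OVX WT mice lay among them, so that under vehicle the groups overlapped and under E2 they did not.

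The average difference of Hdac4 between genotypes over both treatments was −0.47 on the log2(CPM + 0.5) scale (standard error 0.12, 95% interval −0.73 to −0.21), with an unadjusted p = 0.00146 and an adjusted p = 0.126 from limma. Adjusted p-values are Benjamini-Hochberg values over all 15081 genes. To be called, a gene needed both an adjusted p-value below 0.05 and a change of more than 1.3-fold. Over both treatments 0 of the 10 deacetylases were called, where 0.0265% of all genes were. At an unadjusted p-value under 0.05 there were 2 of 10, Hdac4 and Hdac6, where 16.6% of all genes passed, and 0 of 10 had all libraries of one genotype on one side of the other, where 4.36% of all genes did. A test of Hdac4 on its own, exchanging genotypes within each treatment, gave p = 0.03 (exact permutation test, two-sided, 100 regroupings, smallest possible p 0.01), and the other 9 genes gave p between 0.09 (Hdac6) and 0.87 (Hdac5) in that exact test. With single libraries left out, which raises the smallest possible p to between 0.0167 and 0.025, the exact p of Hdac4 lay between 0.025 (without replicate 1 of vehicle-treated OVX WT mice) and 0.1 (without replicate 3 of that group), and it was under 0.05 in 2 of 10 such tests.

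The size of the Hdac4 difference rested in part on single libraries of vehicle-treated OVX WT mice. Without replicate 3 of that group it was −0.34 (adjusted p = 0.355, limma) and without replicate 1 it was −0.60 (adjusted p = 0.0584). Over the 21 alternatives the adjusted p lay between 0.00950 and 0.385, and it passed the threshold in 2, DESeq2 on recovered reads (log2 difference −0.50, adjusted p = 0.00950) and limma without replicate 2 of vehicle-treated OVX Het-Met mice (−0.54, adjusted p = 0.0477). edgeR's quasi-likelihood test gave −0.50 with an adjusted p = 0.126. The sign was the same in all of them. Among all genes, those under the unadjusted threshold were split into 1407 higher and 1096 lower in OVX Het-Met mice, and with median-of-ratios scaling into 1025 higher and 1410 lower, while Hdac4 stayed at −0.49 under that scaling.

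**Figure D2:**
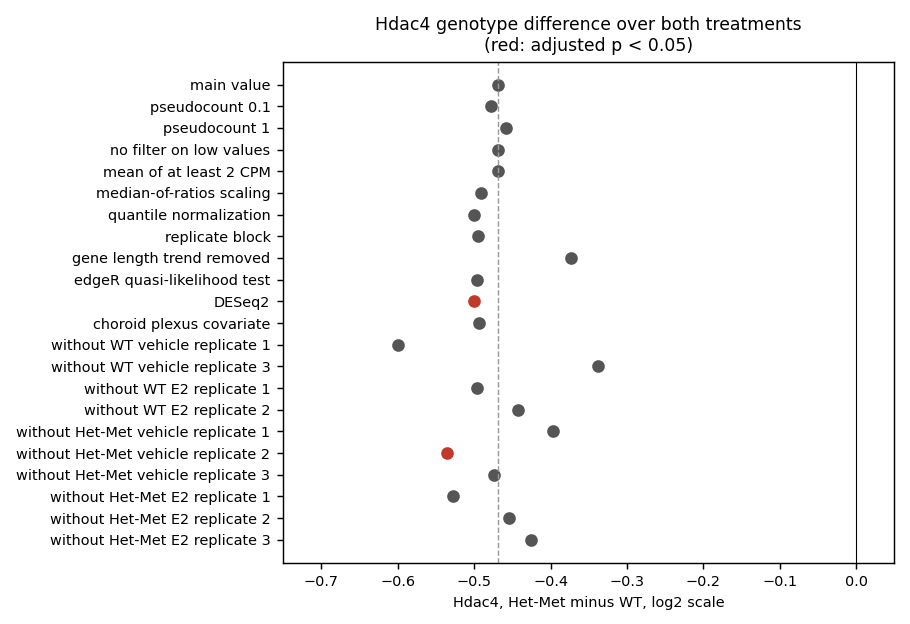
Hdac4 difference of OVX Het-Met from OVX WT libraries over both treatments (log2 scale, horizontal axis) under each processing alternative and with each library left out (rows), where the dashed line marks the main value of −0.47 and red marks an adjusted p under 0.05. All points lie below 0, between −0.60 and −0.34, and 2 are red.

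Long transcripts as a whole were lower in OVX Het-Met libraries, and Hdac4 has a long transcript. Over both treatments the median log2 difference of all genes, in 5 bins of equal size by transcript length, went from 0.12 in the shortest through 0.07, 0.03 and −0.01 to −0.08 in the longest. Hdac4 (8.10 kb), Hdac9 (7.94 kb) and Hdac5 (5.41 kb) are in the longest bin, and Hdac1, Hdac8 and Hdac10 in the next to shortest. After each library's trend on length had been removed, the Hdac4 difference was −0.37 with an adjusted p = 0.271 (limma). Before that removal Hdac9, of like length, differed between genotypes by −0.07 (standard error 0.07), and the shorter Hdac5 by −0.01 (standard error 0.05). After it Hdac9 was at 0.02 and Hdac5 at 0.03. The part of transcript length in the Hdac4 difference was not tested.

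**Figure D3:**
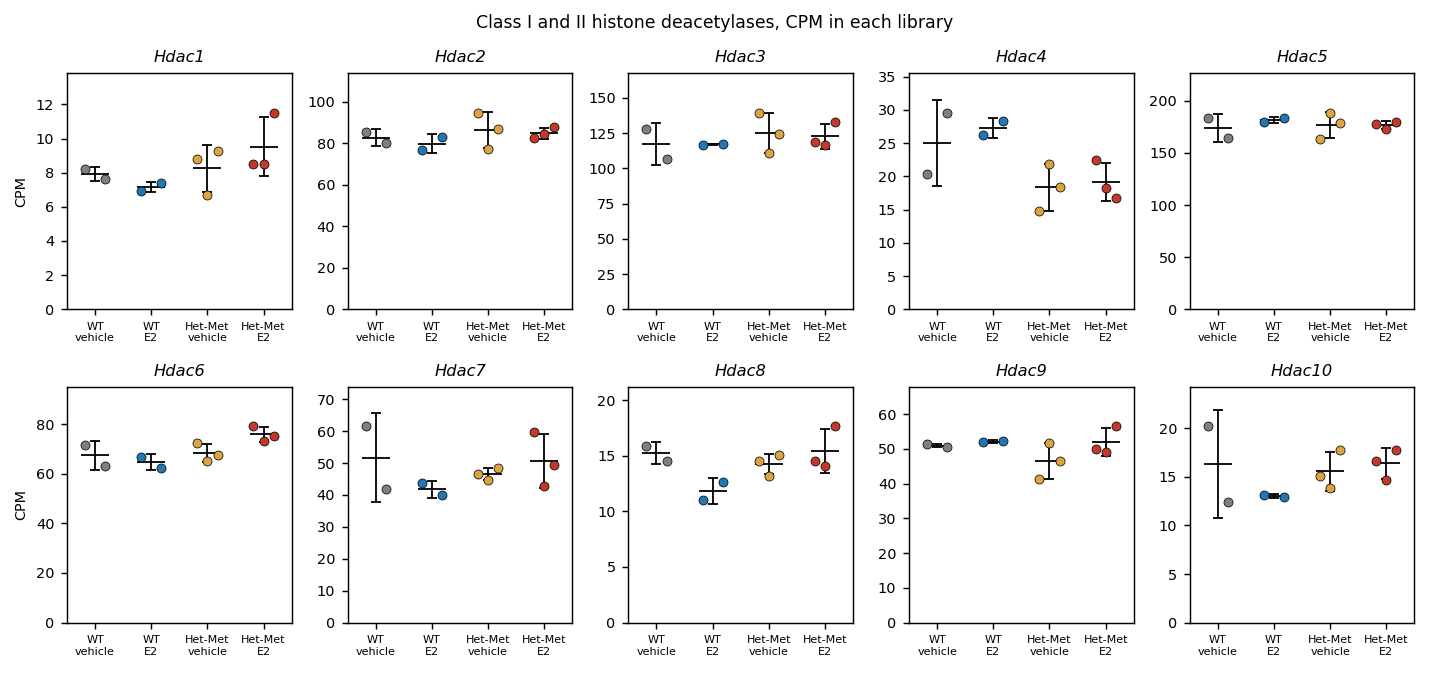
CPM (vertical axes, from 0) of Hdac1 to Hdac10 in the 4 groups of OVX mice, with 1 point per library, a horizontal bar at the group mean and whiskers of 1 SD (n = 2 for each WT group, n = 3 for each Het-Met group). In the Hdac4 panel 3 of the 4 WT libraries lie above all 6 Het-Met libraries, and in the Hdac7 and Hdac10 panels the vehicle-treated WT replicates lie far apart.

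Within treatments, the comparison of genotypes asks whether the Met allele goes with another deacetylase profile without or with E2. Under vehicle, 0 of 10 genes were called (0.00663% of all genes), and 1 of 10 passed the unadjusted threshold (10.7% of all genes), Hdac4 at −0.43 (standard error 0.17, unadjusted p = 0.0235, adjusted p = 0.422, limma). None of the 10 had groups that did not overlap, where 24.7% of all genes had. Without replicate 3 of vehicle-treated OVX WT mice the Hdac4 value was −0.17, without replicate 1 −0.69, and without replicate 1 of vehicle-treated OVX Het-Met mice −0.29. The choroid plexus sum was higher in the Het-Met than in the WT libraries under vehicle (1449 to 3236 against 148 and 1067 CPM) and lower under E2 (260 to 1535 against 1884 and 2483 CPM). Within each treatment the sums of the genotypes did not overlap, so a fit with that sum as a covariate cannot separate it from genotype there. With that sum as a covariate, a fit added after the values had been seen, the Hdac4 difference was −0.70 under vehicle (unadjusted p = 0.00463, adjusted p = 0.604), −0.28 under E2 (unadjusted p = 0.168, adjusted p = 0.918) and −0.49 over both treatments (unadjusted p = 0.000518, adjusted p = 0.110, limma).

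Under E2, 0 of 10 genes were called (0.0265% of all genes), while 4 of 10 passed the unadjusted threshold, where 11.7% of all genes did. Groups did not overlap for 5 of 10 genes, against 35.8% of all genes. Hdac4 was at −0.51 (standard error 0.17, unadjusted p = 0.00943, adjusted p = 0.342, limma). Without replicate 2 of E2-treated OVX WT mice it was −0.45 (unadjusted p = 0.0639, adjusted p = 0.871, limma). The other 3 were at higher values in E2-treated OVX Het-Met mice.

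Hdac6, the tubulin deacetylase, stood at 66.9 and 62.3 CPM in E2-treated OVX WT mice and at 79.4, 73.2 and 75.2 CPM in E2-treated OVX Het-Met mice. All 3 Het-Met libraries exceeded both WT libraries, and the log2 difference was 0.23 (standard error 0.08, unadjusted p = 0.0113, adjusted p = 0.347, limma). With vehicle, Hdac6 stood at 71.7 and 63.3 CPM in OVX WT and at 72.3, 65.1 and 67.7 CPM in the Het-Met libraries, which overlapped (log2 difference 0.02, 95% interval −0.15 to 0.19). Over both treatments Hdac6 differed by 0.13 (standard error 0.06, unadjusted p = 0.0420, adjusted p = 0.284, limma), but its unadjusted p was above 0.05 in 6 of the 10 fits that left out 1 library, with differences down to 0.08 without replicate 3 of vehicle-treated OVX WT mice. Under E2 the Hdac6 difference was 0.18 (unadjusted p = 0.113, adjusted p = 0.871, limma) without replicate 2 of E2-treated OVX WT mice.

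Hdac8, the deacetylase of cohesin, stood at 11.04 and 12.7 CPM in E2-treated OVX WT mice, the 2 lowest of all 10 libraries. It stood at 15.9 and 14.6 CPM in vehicle-treated OVX WT mice, at 14.5, 13.2 and 15.0 CPM in vehicle-treated OVX Het-Met mice and at 14.5, 14.1 and 17.7 CPM in E2-treated OVX Het-Met mice. Under E2 its log2 difference between genotypes was 0.36 (standard error 0.12, unadjusted p = 0.0109, adjusted p = 0.343, limma). Hdac1, with HDAC2 a catalytic subunit of NuRD, stood at 6.95 and 7.39 CPM in E2-treated OVX WT and at 8.51, 8.53 and 11.5 CPM in E2-treated OVX Het-Met mice, a log2 difference of 0.37 (standard error 0.16, unadjusted p = 0.0366, adjusted p = 0.406, limma). For both genes replicate 3 of E2-treated OVX Het-Met mice was the highest of all libraries and without it the differences were 0.26 for Hdac8 and 0.23 for Hdac1. Hdac8 also lost its unadjusted call without replicate 1 of E2-treated OVX WT mice (0.26), and Hdac1 without either replicate of that group (0.33 without replicate 1 and 0.41 without replicate 2). With the choroid plexus covariate they were 0.26 (unadjusted p = 0.118) and 0.27 (unadjusted p = 0.208, limma, adjusted p = 0.918 for both). Another gene whose groups did not overlap was Hdac10, at 13.1 and 12.9 CPM in OVX WT and 16.7, 14.7 and 17.8 CPM in Het-Met libraries under E2 (log2 difference 0.32, unadjusted p = 0.0769, adjusted p = 0.471, limma), and its difference was 0.09 with the covariate.

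**Figure D4:**
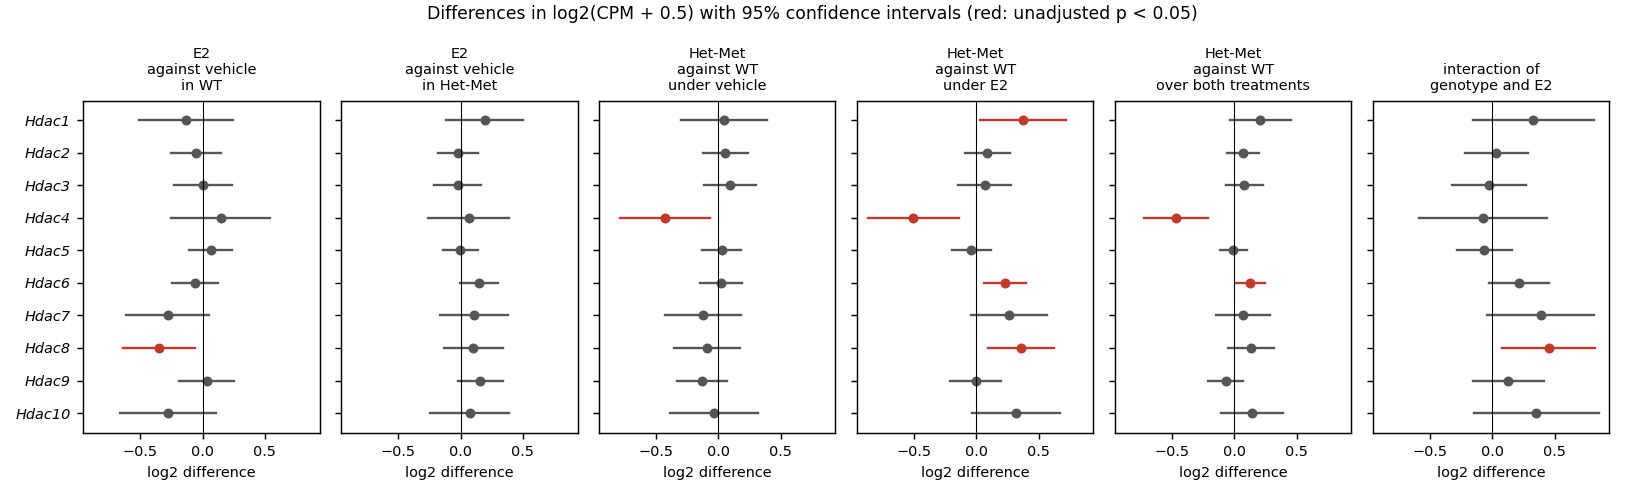
Differences in log2(CPM + 0.5) for the 10 genes (rows) in 6 comparisons (panels), with points at the limma value and bars for the 95% interval, red where the unadjusted p was under 0.05. Hdac4 is red and negative in all 3 genotype panels, Hdac8 is red for E2 in WT, for genotype under E2 and for the interaction, and no gene is red for E2 in Het-Met.

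E2 add-back was compared with vehicle in each genotype. In OVX WT mice 0 of 10 genes were called (0.0133% of all genes), and 1 of 10 passed the unadjusted threshold (4.04% of all genes). That gene was Hdac8, at −0.35 on the log2 scale (standard error 0.14, 95% interval −0.64 to −0.06, unadjusted p = 0.0209, adjusted p = 0.9999, limma). Hdac8 and Hdac1 were lower, and Hdac9 higher, in both E2 libraries than in both vehicle libraries, so groups did not overlap for 3 of 10 genes, where 31.8% of all genes showed the same. Hdac9 moved by little, from 51.3 and 50.6 to 51.9 and 52.3 CPM.

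The choroid plexus markers moved with the Hdac8 comparison, being higher with E2 in OVX WT mice (148 and 1067 against 1884 and 2483 CPM). With their summed level as a covariate, the Hdac8 value was −0.22 (unadjusted p = 0.233, adjusted p = 0.9996, limma). The sums of E2 and vehicle libraries did not overlap, so this fit cannot separate E2 from the choroid plexus sum. In the fit without the covariate, the Hdac8 value was −0.29 without replicate 1 of vehicle-treated and −0.26 without replicate 1 of E2-treated OVX WT mice.

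Hdac7 and Hdac10 were carried by 1 library in this comparison. Hdac7, best known from T cells and vessel endothelium, stood at 61.7 and 41.8 CPM with vehicle and at 43.6 and 39.9 CPM with E2 in OVX WT mice (log2 difference −0.28, unadjusted p = 0.0937, adjusted p = 0.9999, limma). Hdac10 stood at 20.3 and 12.4 CPM with vehicle and at 13.1 and 12.9 CPM with E2 (log2 difference −0.28, unadjusted p = 0.149, adjusted p = 0.9999, limma). Both were highest of all 10 libraries in replicate 1 of vehicle-treated OVX WT mice. Without that replicate the values were −0.00 for Hdac7 and 0.06 for Hdac10, and without replicate 3 they were −0.56 and −0.62. Replicate 1 of that group also had the lowest choroid plexus sum and the highest oligodendrocyte sum (4918 CPM, where the other 9 libraries lay between 3843 and 4810). Its sum of vessel markers (endothelium and mural cells) was the highest as well, at 238 CPM, where the other 9 lay between 177 and 230. Its sums of astrocyte (1642 CPM), ependyma (15.8 CPM) and thalamus markers (72.2 CPM) were the lowest. The part of these in the 2 genes was not tested.

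In OVX Het-Met mice E2 gave 0 of 10 called genes (0% of all genes) and 0 of 10 at the unadjusted threshold (5.45% of all genes). The nearest was Hdac6, from 72.3, 65.1 and 67.7 CPM with vehicle to 79.4, 73.2 and 75.2 CPM with E2, a log2 difference of 0.15 (95% interval −0.00 to 0.30, unadjusted p = 0.0531, adjusted p = 0.916, limma). All 3 E2 libraries exceeded all 3 vehicle libraries, and Hdac6 was the only 1 of the 10 genes with groups that did not overlap, against 10.3% of all genes. Hdac9 followed at 0.16 (standard error 0.08, unadjusted p = 0.0787, adjusted p = 0.929, limma), with 41.3, 51.8 and 46.6 CPM under vehicle and 50.1, 49.2 and 56.6 CPM under E2. Leaving out replicate 1 of the vehicle-treated Het-Met group gave 0.08, leaving out its replicate 2 gave 0.24, and the difference was 0.07 with the choroid plexus covariate. Over both genotypes E2 gave 0 of 10 called genes (0.00663% of all genes), 0 of 10 at the unadjusted threshold (3.22% of all genes) and 0 of 10 with groups that did not overlap (0.318% of all genes).

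Whether E2 acted differently in the genotypes was tested as an interaction, the E2 difference in OVX Het-Met minus that in OVX WT mice. Of the 10 genes 0 were called (0.0729% of all genes) and 1 passed the unadjusted threshold (5.42% of all genes). Hdac8 was at 0.45 (standard error 0.18, 95% interval 0.08 to 0.83, unadjusted p = 0.0205, adjusted p = 0.740, limma), with E2 differences of −0.35 for WT and 0.10 for Het-Met mice. With the choroid plexus covariate the interaction was 0.22 (unadjusted p = 0.419, adjusted p = 0.9999, limma). The unadjusted p was also above 0.05 without replicate 1 of vehicle-treated OVX WT mice (0.39), replicate 1 of E2-treated OVX WT mice (0.36) or replicate 3 of the E2-treated Het-Met group (0.35). The choroid plexus sum was higher with E2 than with vehicle in OVX WT mice and its range lower with E2 in OVX Het-Met mice (260 to 1535 against 1449 to 3236 CPM). That sum thus moved along with the interaction contrast, and the fit with the covariate cannot separate them. The interaction was positive for 7 genes and negative for 3, and their median was 0.17 against 0.01 over all genes. With the choroid plexus covariate 5 genes were negative and the median was 0.04. No other gene was under the unadjusted threshold, and the nearest were Hdac7 at 0.39 (unadjusted p = 0.0742, adjusted p = 0.970) and Hdac6 at 0.21 (unadjusted p = 0.0826, adjusted p = 0.975, limma). Both rested on single libraries of vehicle-treated OVX WT mice, Hdac7 being at 0.11 without replicate 1 and 0.67 without replicate 3, and Hdac6 at 0.12 and 0.30.

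Hdac2 and Hdac3, the class I enzymes with the highest levels, and Hdac5 were the closest to level across groups. Hdac2 lay between 76.5 and 94.7 CPM and Hdac3 between 107 and 139.5 CPM over the 10 libraries, and both were highest in replicate 1 of vehicle-treated OVX Het-Met mice. For genotype the 95% interval over both treatments was −0.06 to 0.20 for Hdac2, −0.07 to 0.23 for Hdac3 and −0.12 to 0.10 for Hdac5. Over both genotypes the interval of the E2 difference was −0.17 to 0.09 for Hdac2, −0.16 to 0.14 for Hdac3 and −0.08 to 0.14 for Hdac5. For Hdac5 the library values ran from 164 CPM in replicate 1 to 189 CPM in replicate 2 of the same group, vehicle-treated OVX Het-Met mice, so the extremes of this gene came from replicates of 1 condition.

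Summed by class, the 4 class I genes held 223 ± 20.03 CPM with vehicle and 216 ± 6.38 CPM with E2 in the WT libraries (SD, n = 2). Het-Met libraries had 234 ± 24.8 CPM with vehicle and 232 ± 15.2 CPM with E2 (SD, n = 3). For the 4 class IIa genes the sums, in the same order, were 302 ± 21.2 and 303 ± 2.40 CPM for WT and 288 ± 20.5 and 298 ± 13.9 CPM for Het-Met. In these sums of unscaled CPM Hdac3 and Hdac5 weigh most, and the group means differed by less than the largest SD of a group. The class IIb pair summed to 83.8 ± 11.5 and 77.6 ± 3.42 CPM for WT and to 84.0 ± 4.45 and 92.3 ± 4.14 CPM for Het-Met, highest in the E2-treated OVX Het-Met group.

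Across the libraries some deacetylases went together. Of the 45 pairs among the 10 genes, 2 had an adjusted p-value under 0.05 over the 45 pairs, and 14 had an unadjusted p-value under 0.05. Hdac2 and Hdac3 had a Pearson r of 0.868 (permutation p = 0.00114, adjusted p = 0.0274) and a Spearman rho of 0.830 (permutation p = 0.00478, adjusted p = 0.0717) over 10 libraries. Their r was 0.887 without the 2 libraries farthest from the median of the first-named gene of the pair, and 0.871 after group means were subtracted. Hdac7 and Hdac10 had an r of 0.853 (permutation p = 0.00122, adjusted p = 0.0274) and a rho of 0.903 (permutation p = 0.000820, adjusted p = 0.0369), with 0.903 without the 2 farthest libraries and 0.816 within groups. Both genes lie on chromosome 15, and both were highest in replicate 1 of vehicle-treated OVX WT mice. Hdac1 and Hdac8, highest together in replicate 3 of E2-treated OVX Het-Met mice, had an r of 0.829 (permutation p = 0.00469, adjusted p = 0.0573) and a rho of 0.721 (permutation p = 0.0236, adjusted p = 0.110), with 0.768 without the 2 farthest libraries and 0.900 within groups.

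Hdac4 had a negative r with 7 of the other 9 genes, and none of these pairs passed the adjusted threshold. Its r was −0.802 with Hdac3 (permutation p = 0.00573, adjusted p = 0.0573), −0.788 with Hdac2 (permutation p = 0.00637, adjusted p = 0.0573) and −0.681 with Hdac1 (permutation p = 0.0253, adjusted p = 0.117). The Spearman values were −0.685 (permutation p = 0.0345, adjusted p = 0.110), −0.806 (permutation p = 0.00760, adjusted p = 0.0855) and −0.745 (permutation p = 0.0177, adjusted p = 0.110). With Hdac6, Hdac10, Hdac8 and Hdac7 r lay between −0.635 and −0.337, and with the other class IIa genes, Hdac5 and Hdac9, it was 0.190 and 0.451 (adjusted permutation p from 0.151 to 0.736 over these 6 pairs). For Hdac3, Hdac2 and Hdac1, after group means were subtracted r with Hdac4 was −0.901, −0.783 and −0.635. Without the 2 farthest libraries it was −0.577, −0.633 and −0.813. Those libraries were chosen by their distance from the median of Hdac3, Hdac2 or Hdac1, and not of Hdac4. The libraries share a common total of reads, and 0 of 45 pairs passed the adjusted threshold with median-of-ratios scaling and 3 with quantile normalization.

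**Figure D5:**
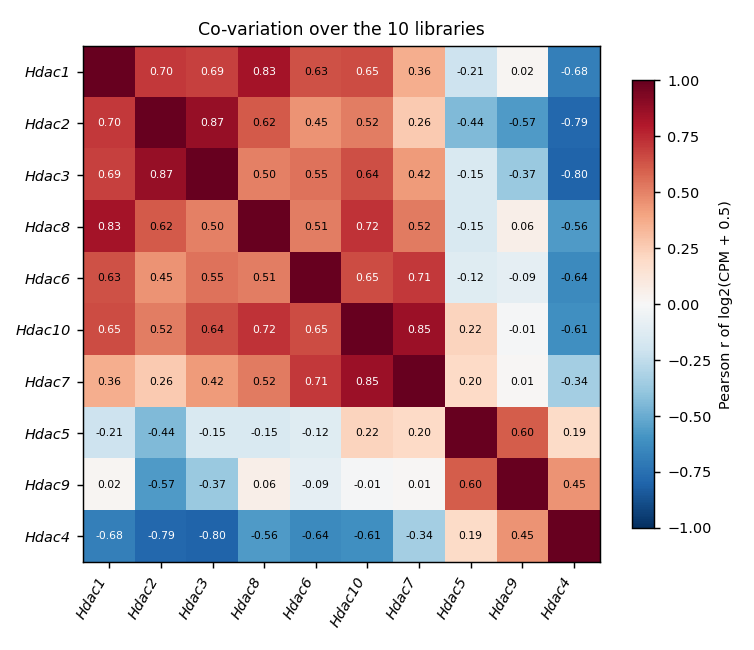
Pearson r of log2(CPM + 0.5) over the 10 libraries for each pair of deacetylases, from −1 (blue) to 1 (red). Hdac2 with Hdac3 (0.868) and Hdac7 with Hdac10 (0.853) are the highest pairs, and the Hdac4 row is blue against Hdac1, Hdac2 and Hdac3.

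Of all genes tested, those most like Hdac4 over the 10 libraries were Syt2, a synaptic vesicle calcium sensor (r = 0.975), Zdhhc5, a palmitoyltransferase (r = 0.974), and Pbrm1, a subunit of a SWI/SNF remodeling complex (r = 0.974). Those most like Hdac6 were Rasa4 (r = 0.929), Anxa9 (r = 0.924) and Lmbr1l (r = 0.920). For Hdac8 they were 4930525G20Rik (r = 0.935), Zp2 (r = 0.915) and Dmrt2 (r = 0.914), which are low genes with means of 2.60, 0.525 and 1.86 CPM. For Hdac1 they were Zfp942 (r = 0.934), Myadml2 (r = 0.931) and Cnot2 (r = 0.926). These r are the highest among 15081 genes over only 10 libraries and are a description.

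Genes that work with the deacetylases were taken from 11 lists and compared in the same fit. In each of the 7 comparisons 0 genes of any list were called, so their values are given with unadjusted p-values beside the shares of all genes given above. The lists were chosen with earlier results of these data known. Their values come from the fit without removal of the length trend described above. Over all genes that removal took the count under the unadjusted threshold for genotype over both treatments from 2503 of 15081 to 1413 of 14974. The part of transcript length in the differences of the list genes was not tested. The list counts below are of genes with an unadjusted p under 0.05 (limma) for genotype over both treatments, as 16.6% of all genes had. In the repressor complexes that hold HDAC1 and HDAC2, 3 of 13 NuRD genes passed at higher and 2 at lower values in OVX Het-Met mice. Of 13 SIN3 genes 3 passed at higher and 0 at lower values, and of 9 CoREST genes 1 passed at higher and 1 at lower. Whatever their p-value, 7 NuRD, 8 SIN3 and 5 CoREST genes were higher, and 6, 5 and 4 were lower. The list medians were 0.02, 0.05 and 0.05 on the log2 scale, against 0.02 over all genes.

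Gatad2b, a scaffold subunit of NuRD, was at 35.8 ± 2.52 and 40.4 ± 4.51 CPM in WT libraries with vehicle and with E2 (SD, n = 2), against 27.3 ± 7.04 and 27.9 ± 3.34 CPM in Het-Met libraries (SD, n = 3). The log2 difference over both treatments was −0.47 (unadjusted p = 0.00135, adjusted p = 0.126, limma), as large as that of Hdac4. Suds3, a SIN3 subunit, was at 80.3 ± 5.61 and 80.9 ± 0.893 CPM in OVX WT and at 90.5 ± 2.95 and 98.0 ± 5.67 CPM in OVX Het-Met mice, a difference of 0.22 (unadjusted p = 0.000670, adjusted p = 0.120, limma). Ing2, which also belongs to SIN3, was at 0.21 (unadjusted p = 0.00683, adjusted p = 0.162, limma). Rcor1, the CoREST scaffold, was at −0.21 (unadjusted p = 0.0272, adjusted p = 0.241) and Hmg20b of the same complex at 0.20 (unadjusted p = 0.0313, adjusted p = 0.253, limma).

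In the complex of HDAC3, the list median over both treatments was −0.16, with 3 of 5 genes lower and 2 higher in OVX Het-Met mice. At an unadjusted p under 0.05 (16.6% of all genes), 2 of 5 were lower and 0 higher. These were Tbl1x, a subunit that exchanges corepressors, at −0.29 (unadjusted p = 0.00666, adjusted p = 0.160), and Ncor1, the corepressor itself, at −0.17 (unadjusted p = 0.00872, adjusted p = 0.169, limma). Of the 12 acetyltransferases, which oppose the deacetylases, 8 were lower and 4 higher, with a median of −0.09. At that threshold 4 were lower and 0 higher. Kat6a was at −0.22 (unadjusted p = 0.00224, adjusted p = 0.128), Ncoa1 at −0.17 (unadjusted p = 0.00485, adjusted p = 0.147) and Ep300 at −0.19 (unadjusted p = 0.0139, adjusted p = 0.190, limma). All 8 other deacetylases, Hdac11 and the sirtuins, were higher, and 1 passed that threshold, the mitochondrial Sirt3 (0.13, unadjusted p = 0.0242, adjusted p = 0.231, limma).

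Of 16 kinases of the class IIa enzymes, 7 were higher and 9 lower in OVX Het-Met mice over both treatments. At an unadjusted p under 0.05 (16.6% of all genes), 4 were lower and 0 higher. Sik2, a kinase of class IIa deacetylases, was at 17.1 ± 0.0153 and 17.4 ± 1.24 CPM in OVX WT and at 12.2 ± 2.65 and 14.3 ± 1.93 CPM in OVX Het-Met mice, a log2 difference of −0.39 (unadjusted p = 0.00344, adjusted p = 0.143, limma). Sik3 was at −0.15 (unadjusted p = 0.00810, adjusted p = 0.167) and Camk4, a nuclear calmodulin kinase, at −0.13 (unadjusted p = 0.0337, adjusted p = 0.260, limma). Of the 7 Ywha and Sfn genes, whose products hold phosphorylated class IIa enzymes in the cytoplasm, 6 were higher and 1 lower. At that threshold 0 were lower and 2 higher, Ywhaz (0.20, unadjusted p = 0.00548, adjusted p = 0.151) and Ywhae (0.12, unadjusted p = 0.0338, adjusted p = 0.261, limma).

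Mef2c, a transcription factor that class IIa enzymes repress, had the smallest interaction p-value of the lists. It was at 209 ± 7.86 CPM in vehicle-treated and 171 ± 5.37 CPM in E2-treated OVX WT mice (SD, n = 2), against 156 ± 9.23 and 202 ± 36.4 CPM in the Het-Met groups (SD, n = 3). The log2 difference with E2 was −0.28 in OVX WT mice (unadjusted p = 0.0286, adjusted p = 0.9999) and 0.36 in OVX Het-Met mice (unadjusted p = 0.00206, adjusted p = 0.668, limma). Its interaction was 0.64 (standard error 0.15, unadjusted p = 7.34e-04, adjusted p = 0.148, limma). The choroid plexus sums moved the other way with E2, from 148 and 1067 to 1884 and 2483 CPM in OVX WT mice. In OVX Het-Met mice they lay between 1449 and 3236 CPM with vehicle and between 260 and 1535 CPM with E2. What the choroid plexus covariate or a left-out library does to the Mef2c values was not examined. Mef2a and Mef2d, the other 2 of 3 tested, had no unadjusted p-value under 0.05 in any comparison.

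Of 9 substrates and partners of HDAC6, 7 were higher and 2 lower in OVX Het-Met mice over both treatments. At an unadjusted p under 0.05 (16.6% of all genes), 1 was higher and 0 lower. This was the tubulin gene Tuba1a (0.24, unadjusted p = 0.0451, adjusted p = 0.292, limma), which has close paralogs that can share reads. It was at 375 ± 111 CPM in E2-treated OVX Het-Met mice, a spread wider than its difference from the 272 ± 0.972 CPM of E2-treated OVX WT mice. In the cohesin cycle of HDAC8, 5 of 7 genes tested were higher and 2 lower over both treatments. At that threshold 1 was higher, Stag1 at 0.15 (unadjusted p = 0.0230, adjusted p = 0.226), and 1 lower, the cohesin loader Nipbl at −0.18 (unadjusted p = 0.0103, adjusted p = 0.177, limma). Smc3, the substrate of HDAC8, was not among the genes under the unadjusted threshold in any comparison.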

How the data were processed

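RNA-seq of the ventral hippocampus was deposited as a single table of CPM values for 24421 gene symbols in 10 libraries. Per the labels and methods, the authors made TruSeq stranded libraries, read 75-base single ends, aligned them to mm10 with TopHat2 and analysed differential expression with DESeq in Strand NGS, while DESeq2 served a comparison with human cells. The strand setting of the counting is not given in the sources used here. The methods state 3 replicates per group, and 2 libraries of each WT group were analysed here. Every deposited CPM value was a whole multiple of that library's value of 1 read (tolerance 0.01 reads), so reads were recovered, and count tests on them were alternatives.

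Differences were fitted with limma 3.58.1 (R 4.3.3) on log2(CPM + 0.5) as 4 group means over all 10 libraries, which share one estimate of the spread (6 residual and 8.90 prior degrees of freedom), for genes whose mean CPM was 0.5 or more. The pseudocount understates changes of low genes. P-values were adjusted by Benjamini-Hochberg over 15081 genes. Libraries are pools, and nothing states how pools relate to separate cohorts, so p-values measure the spread between these libraries. The fit was tested on simulated counts with planted genotype changes and the same dispersion for every gene. They held no tissue or length trends between libraries, so that test does not check the p-values reported here. Correlations used 100000 resamples. Lengths came from GENCODE vM21, to which 23376 symbols matched directly and 649 through older symbols, while 396 did not. Alternatives were other pseudocounts (0.1 and 1), filters (none and a mean of 2 CPM), scalings (median-of-ratios and quantile), removal of the length trend, only the libraries compared, a replicate block, edgeR 4.0.16, DESeq2 1.42.0, no fold change limit and each library left out. A choroid plexus covariate was added after the data had been seen. Figures were drawn with matplotlib 3.10.9.

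The members and the gene lists were chosen with earlier results of these data known. All 10 deacetylases were named, with the 3 genes most like each one that had an unadjusted p-value under 0.05. From the lists, up to 3 genes per comparison with the smallest unadjusted p-values under 0.05 could be named, and those for genotype over both treatments were preferred. Smc3, Mef2a and Mef2d were named for their roles.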

Additional observations from a re-analysis of the deposited data

How the results depend on the processing

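No deacetylase was called in limma, edgeR's quasi-likelihood test or any other alternative in the 6 comparisons other than genotype over both treatments. There DESeq2 called 1 of 10 (Hdac4), and leaving out single libraries gave 0 to 1, the 1 being Hdac4 without replicate 2 of vehicle-treated OVX Het-Met mice. In that comparison DESeq2 called 88 of all genes, against 4 in limma and 4 in edgeR, and in the other 6 comparisons DESeq2 called 5 to 37 against 0 to 11 in limma, while edgeR called 0 to 14. The counts under the unadjusted threshold moved more. For genotype under E2 the 4 of 10 became 6 with only the libraries compared, where 2577 of 15081 genes passed, and 3 with the length trend removed. For genotype over both treatments, 2 genes became 1 with median-of-ratios scaling, 1 with edgeR, 1 with DESeq2 and 1 with the choroid plexus covariate, and 1 to 4 when libraries were left out. For genotype under vehicle, 1 became 0 without a filter on low values, and 0 to 2 with libraries left out. For genotype under E2, 4 became 2 without that filter and 1 with the choroid plexus covariate, and 1 to 6 with libraries left out. For E2 in OVX WT mice, 1 became 0 with the choroid plexus covariate, and 0 to 3 with libraries left out. For E2 in OVX Het-Met mice, 0 became 1 with median-of-ratios scaling and 1 with edgeR, and 0 to 1 with libraries left out. For the interaction, 1 became 2 with DESeq2 and 0 with the covariate, and 0 to 4 with libraries left out. For E2 over both genotypes, 0 became 0 to 2 with libraries left out. The exact permutation test had 1 gene under 0.05, and 0 to 2 with libraries left out. Of the co-varying pairs, 2 became 0 with median-of-ratios scaling and 3 with quantile normalization. The median level of the 10 genes was 5.83 CPM per kb of exon and 7.78 CPM per kb of the longest transcript. Of 70 values (10 genes in 7 comparisons), 39 changed sign in some alternative, and 0 of those 39 had an unadjusted p under 0.05 in the limma fit as reported. The cause of these moves was not tested. Deviations from group means correlated at −0.172 to 0.0826 for same-numbered libraries (12 pairs) and at −0.151 to 0.172 for other libraries (25 pairs). In a group of 2 libraries these deviations mirror each other, so the pairs are not independent. The check can therefore not decide whether replicate numbers mark a batch. With the number as a replicate block, genes under the unadjusted threshold were 0 for E2 in OVX WT, 1 for E2 in OVX Het-Met and 0 for the interaction, and the counts of the other 4 comparisons did not move. A library left out of a WT group leaves 1 sample there, assumed to vary like the others. Depth limits Hdac1 (133 to 243 reads) and Hdac8 (246 to 373 reads) most.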
